A study of Homo sapiens with 2 samples.

Results

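The genes examined were 10 core members of the Notch pathway, namely the receptors NOTCH1, NOTCH2 and NOTCH3, the ligands DLL1, DLL4, JAG1 and JAG2, the DNA-binding factor RBPJ and the targets HES1 and HEY1. They are 10 of the 20136 protein-coding genes of the GENCODE annotation on hg19, and they were chosen by name. A SOX9 peak was given to a gene when its summit lay within 1 kb of a transcription start site (TSS) of the gene, in the gene body or in the 20 kb around it. By that rule 24 of the 17847 SOX9 peaks belonged to these genes. SOX9 is an HMG-box transcription factor of stem and progenitor cells, including those of the intestinal crypt. The data come from HT-29, a human colorectal adenocarcinoma cell line, from which 1 SOX9 ChIP library, made with an antibody from Millipore, and 1 input DNA library were sequenced. No treatment or genetic change separated them, and the labels give DMEM with foetal calf serum as the medium whereas the methods of the study give McCoy's 5A. Each library held 12320108 tags after the authors brought the input down to the size of the ChIP. With 1 library of each kind there was no replicate error and no test between conditions, so the intervals given are exact 95% intervals that cover counting error only.

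Notch signalling passes between cells that touch. A ligand of the Delta-like or Jagged family on one cell binds a Notch receptor on its neighbour, the receptor is cut by an ADAM protease and then by γ-secretase, and the freed intracellular domain enters the nucleus, where it binds RBPJ and a Mastermind coactivator and switches on HES and HEY genes, which encode basic helix-loop-helix repressors. In the intestinal epithelium Notch keeps progenitors undifferentiated and, through HES1, holds down ATOH1 and with it the secretory lineage.

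SOX9 peaks were found at the promoters of both target genes, of RBPJ, of 3 of the 4 ligands and of 1 of the 3 receptors. In all, 7 of the 10 genes had a summit within 1 kb of a TSS, where the share over all protein-coding genes was 44.9%. The genes without such a summit were NOTCH2, NOTCH3 and JAG2. When the gene body and 20 kb on each side were included, 8 of the 10 genes had a peak, beside 65.4% of all protein-coding genes. NOTCH2 and JAG2 had none. The 10 genes had a median of 7.5 annotated TSSs against 5 over all protein-coding genes, so they offered more positions at which a summit could count. With only the start of the transcript tagged canonical, a choice made after seeing the data, 6 of the 10 genes had a promoter peak, against 40.9% of all protein-coding genes, and DLL1 was the gene lost.

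The 24 peaks were of ordinary size for this library. They held a median of 47 tags, with a lowest value of 16 and a highest of 133, whereas the median over all SOX9 peaks was 45 tags with quartiles of 30 and 69. The 9 promoter peaks had a median of 56 tags, the same as the 8654 peaks within 1 kb of a TSS of any protein-coding gene, and the 15 other peaks had a median of 36 tags against 37. The median fold enrichment over the local input, as the peak caller MACS gave it, was 10.8, against 10.4 over all peaks. The empirical false discovery rate was 0 for 19 of the 24 peaks and reached 0.03% at most. At or above the upper quartile of tags lay 8 of the 24 peaks, in the territories of NOTCH1, DLL4, JAG1 and HES1, and 1 of the 8 is nearer to the start of SEC16A than to that of NOTCH1.

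**Figure D1:**
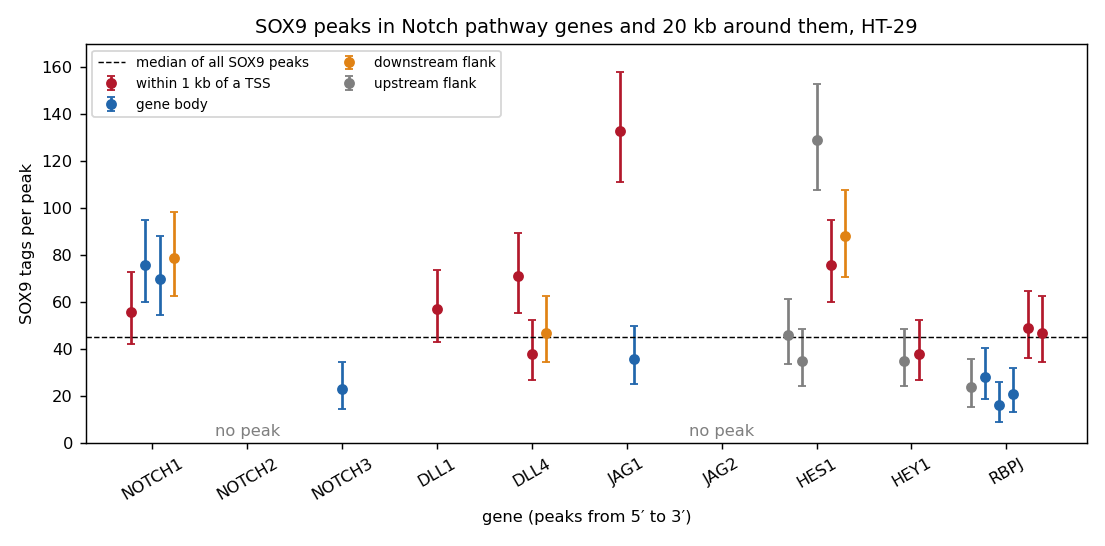
SOX9 tags in each of the 24 peaks, ordered within each gene from 5′ to 3′ and coloured by position. Bars are exact Poisson 95% intervals and the dashed line is the median of all SOX9 peaks (45 tags). JAG1 (133 tags) and HES1 (129 tags) held the peaks with the most tags, the 4 RBPJ peaks away from its internal promoters held 16 to 28 tags, and NOTCH2 and JAG2 had no peak.

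Among the receptors, NOTCH1 carried 4 peaks, all above the median of the library. NOTCH1 is the receptor that, together with NOTCH2, acts in intestinal progenitors, and it lies on the minus strand at chr9:139388885-139440500. Peak 1, at chr9:139440574-139441562, had its summit 211 bp upstream of the TSS and held 56 tags (interval 42.3 to 72.7) at a fold of 12.11. Its highest SOX9 signal was 26 extended tags per 32-nt bin and the highest input signal was 6. Signals of other peaks are given in the same way, and the highest bins of the libraries need not coincide. The summit of peak 1 coincides with the start of the microRNA gene MIR4674, so the tags there cannot be assigned to one of the genes. Peak 2, in an intron 2129 bp downstream of the TSS, was the sharpest of the NOTCH1 peaks, with 76 tags (59.9 to 95.1), a fold of 20.98 and a highest signal of 49 against 7 in the input. That signal of 49 was the highest in any of the 24 peaks. Peak 3 lay in an intron, 19827 bp downstream of the canonical TSS and 2323 bp upstream of another TSS of NOTCH1. It held 70 tags (54.6 to 88.4) at a fold of 8.51. Peak 4 held 79 tags (62.5 to 98.5) at a fold of 10.79, but it lay beyond the 3′ end of NOTCH1 and 67 bp upstream of a TSS of SEC16A, a gene of the secretory pathway, and is therefore the SEC16A promoter peak by position.

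The sequences under peaks 2 and 3 of NOTCH1 are shown because they hold the motifs of this locus. Each runs 100 bases to either side of the summit in hg19, in the direction of the gene. Capitals mark CCAAT, the box bound by NF-Y, which reads ATTGG on the opposite strand and stood 35 bp from the summit of peak 2. In peak 3 they mark TGGGAA, the core of the sequence bound by RBPJ, in both orientations, 2 bp and 60 bp from the summit.
NOTCH1 peak 2, chr9:139438271-139438471, minus strand: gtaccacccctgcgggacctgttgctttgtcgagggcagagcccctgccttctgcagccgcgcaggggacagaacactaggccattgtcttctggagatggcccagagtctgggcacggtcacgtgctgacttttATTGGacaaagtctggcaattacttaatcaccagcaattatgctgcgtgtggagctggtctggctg
NOTCH1 peak 3, chr9:139420573-139420773, minus strand: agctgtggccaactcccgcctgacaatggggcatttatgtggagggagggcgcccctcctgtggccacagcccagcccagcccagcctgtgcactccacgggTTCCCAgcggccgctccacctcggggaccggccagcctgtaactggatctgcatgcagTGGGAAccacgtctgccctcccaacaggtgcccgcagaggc

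NOTCH3, a receptor known best from vascular smooth muscle, had 1 peak, away from its start. Within 1 kb of its TSSs the highest SOX9 signal was 4 and the highest input signal 3, and 21.7% of protein-coding genes had a lower SOX9 signal. The peak lay in an intron at chr19:15306680-15307294, 4697 bp downstream of the nearest TSS of the gene and 4790 bp downstream of the canonical one. It held only 23 tags (14.6 to 34.5), but the input was low there, so that the fold reached 19.05 and the signal was 17 against 2. The small tag count and the high fold thus gave it a different place in the 2 rankings, with 11.7% of all SOX9 peaks holding fewer tags. Its sequence is shown because the summit base itself falls in a match to TGANTCA, a loose pattern searched here for AP-1 factors, where N is any base. The letters here are TGAATCA, whereas the match in RBPJ peak 4 reads TGACTCA. The other capitals are TGGGAA, 76 bp from the summit.
NOTCH3 peak 1, chr19:15306916-15307116, minus strand: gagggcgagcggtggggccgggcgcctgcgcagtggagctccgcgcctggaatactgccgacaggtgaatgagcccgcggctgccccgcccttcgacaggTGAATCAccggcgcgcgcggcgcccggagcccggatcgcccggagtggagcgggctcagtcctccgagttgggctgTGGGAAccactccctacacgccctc

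NOTCH2 had no SOX9 peak in its body or in the 20 kb around it. The highest SOX9 signal within 1 kb of its TSSs was 5, against 4 in the input, and 28.6% of protein-coding genes had a lower one. Around the canonical TSS 12 SOX9 tags and 8 input tags were counted, a ratio of 1.5 (0.564 to 4.23), and this was the only member whose interval included 1. Over the gene body the mean signal per bin was 0.353 for SOX9 and 0.426 for the input. The gene lies next to the centromere of chromosome 1, and unsequenced bases made up 16.2% of the 1 Mb around it. Its first exons have near-identical copies in the NOTCH2NL genes, and since the authors kept only unique alignments, its promoter signal is uncertain.

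The ligands differed widely, from the peak with the most tags of the whole set to no peak at all. JAG1, the Jagged ligand mutated in Alagille syndrome, lies on the minus strand at chr20:10618332-10654647. Its promoter peak, at chr20:10653133-10655925, held 133 tags (111 to 158) at a fold of 11.22 and more tags than 94.7% of all SOX9 peaks. The peak was also very broad, 2793 bp against a median of 793 bp, and wider than 99.6% of all peaks. Its summit, 411 bp upstream of the TSS, reached a signal of only 20, against 1 in the input at the same position. The highest input signal anywhere in the peak was 5. The map showed several low humps across the TSS rather than 1 sharp summit. A second JAG1 peak in the first kilobases of the gene, 2115 bp downstream of the TSS, held 36 tags (25.2 to 49.8) at a fold of 5.49. None of the motifs searched stood within 100 bp of either JAG1 summit. The sequence under the promoter summit is shown as that of the most tag-rich peak, all in lower case because no motif was found in it.
JAG1 peak 1, chr20:10654958-10655158, minus strand: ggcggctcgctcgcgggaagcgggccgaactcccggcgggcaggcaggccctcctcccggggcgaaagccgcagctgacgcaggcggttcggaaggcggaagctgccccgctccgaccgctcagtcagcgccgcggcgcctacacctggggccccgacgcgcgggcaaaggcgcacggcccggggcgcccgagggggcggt

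DLL4, the Delta-like ligand of endothelium and of the crypt, had 3 peaks. Peak 1, at chr15:41221183-41222433, had its summit 16 bp downstream of the TSS, in the untranslated part of the first exon, with 71 tags (55.5 to 89.6) and the lowest fold of the 24 peaks, 5.19. Peak 2, in an exon 1374 bp downstream of the canonical TSS, held fewer tags, 38 (26.9 to 52.2), at a higher fold of 13.39, and it counted as a promoter peak because another TSS of DLL4 starts 166 bp further on. The highest signal was 18 against 7 in the input for peak 1 and 25 against 3 for peak 2. Peak 3 lay in the downstream flank at chr15:41233638-41234451, with 47 tags (34.5 to 62.5) at a fold of 6.43, and its nearest coding TSS was that of CHAC1, 11010 bp away. Its sequence is shown because a CCAAT box, in capitals, lies 3 bp from the summit, closer than in any other of the 24 peaks.
DLL4 peak 3, chr15:41234050-41234250, plus strand: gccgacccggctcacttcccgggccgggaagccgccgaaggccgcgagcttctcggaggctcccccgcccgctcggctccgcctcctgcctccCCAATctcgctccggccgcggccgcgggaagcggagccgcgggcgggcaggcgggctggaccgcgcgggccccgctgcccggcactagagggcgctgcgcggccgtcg

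DLL1, the Delta-like ligand of secretory precursors in the intestine, had a promoter peak only through an alternative start. The peak, at chr6:170615327-170616277, held 57 tags (43.2 to 73.9) at a fold of 5.22, with a signal of 21 against 10 in the input, the highest input signal at any of the 24 peaks. Its summit was 180 bp upstream of the outer DLL1 TSS but 15667 bp upstream of the canonical one. It was 13 bp upstream of a TSS of FAM120B, the neighbouring gene on the opposite strand, so binding at DLL1 and at FAM120B cannot be told apart. At the canonical DLL1 TSS the highest signal was 5 against 1. There 23 SOX9 tags and 5 input tags were counted, a ratio of 4.6 (1.71 to 15.5).

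JAG2, the other Jagged ligand, had no peak in its body or flanks. Its highest SOX9 signal near a TSS was 5 against 2 in the input, as low as that of NOTCH2. Around the canonical TSS 22 SOX9 tags stood against 3 input tags, a ratio of 7.33 (2.2 to 38.3), so SOX9 tags exceeded the input although no peak was called. The lower end of that interval lies above 1, but the wide interval shows how few input tags it rests on.

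RBPJ, the DNA-binding partner of all Notch receptors and a repressor in their absence, had the most peaks, 6, in the largest gene of the set (271677 bp, chr4:26165077-26436753). The strongest by tags were 2 peaks at internal promoters, with summits 1077 bp apart. Peak 5, at chr4:26320815-26321635, held 49 tags (36.3 to 64.8) at a fold of 9.52, 66 bp downstream of an internal TSS. Peak 6, at chr4:26321935-26322824, held 47 tags (34.5 to 62.5) at a fold of 13.74, 46 bp downstream of another TSS and 161 bp upstream of the canonical one. These 2 peaks had like tag counts, with intervals that overlap almost entirely, and both summits lay in an untranslated region of some RBPJ transcript. The outermost RBPJ TSS, 157559 bp upstream of the canonical one, had no peak within 1 kb.

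The other 4 RBPJ peaks were small. Peak 1, 17965 bp upstream of the gene, held 24 tags (15.4 to 35.7), and peaks 2, 3 and 4, in introns of the long 5′ part of the gene, held 28 (18.6 to 40.5), 16 (9.15 to 26.0) and 21 (13.0 to 32.1) tags. Their fold values were 8.57, 11.11, 12.05 and 10.71, beside 9.52 and 13.74 for the promoter peaks. Peak 3 had the fewest tags of the whole set, only 2.64% of all SOX9 peaks had fewer, and its false discovery rate of 0.03% was the highest of the 24. The sequences of peaks 2 and 4 are shown because they hold motifs. Capitals mark a match to the SOX9 consensus in peak 2 (CATTGTA, 60 bp from the summit) and TGANTCA and CCAAT in peak 4, 52 bp and 16 bp from the summit. None of the motifs stood within 100 bp of the summit of peak 3, where the sequence is a simple repeat of TA, TG and CA.
RBPJ peak 2, chr4:26240008-26240208, plus strand: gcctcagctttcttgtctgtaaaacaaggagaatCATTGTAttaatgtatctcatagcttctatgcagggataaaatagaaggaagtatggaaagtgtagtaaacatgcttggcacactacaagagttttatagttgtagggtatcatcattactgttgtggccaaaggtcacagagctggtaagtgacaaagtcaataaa
RBPJ peak 4, chr4:26290313-26290513, plus strand: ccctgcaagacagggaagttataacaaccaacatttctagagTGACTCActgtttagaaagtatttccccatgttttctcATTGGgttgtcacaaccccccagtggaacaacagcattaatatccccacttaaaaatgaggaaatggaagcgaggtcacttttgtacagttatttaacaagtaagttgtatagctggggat

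HES1, the main Notch target in intestinal progenitors, was the most densely occupied member. It is a small gene (2585 bp, chr3:193853937-193856521), yet 5 SOX9 summits lay within 20 kb of it. Only 4.23% of all protein-coding genes had 5 or more summits, and among the members RBPJ was the other one, over a gene body that was far longer. From 5′ to 3′, the summits stood 4757, 3530, 1077 and 133 bp upstream of the TSS and 5621 bp downstream of it, so that 4 of the 5 fell upstream. The tags in these peaks were 46 (33.7 to 61.4), 35 (24.4 to 48.7), 129 (108 to 153), 76 (59.9 to 95.1) and 88 (70.6 to 108).

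The 2 central HES1 peaks had the highest signals at this locus. Peak 3 was also broad, 1618 bp, and wider than 95.1% of all peaks. Peak 3, at chr3:193851684-193853301, had 129 tags, a fold of 21.43, which was the highest of the 24 peaks, and a signal of 46 against 8 in the input. Its summit missed the 1 kb promoter window by less than 100 bp, and 148 bp downstream of it starts a long noncoding RNA, ENSG00000289385. Peak 4, at chr3:193853471-193854384, was the promoter peak proper, with 76 tags, a fold of 17.14 and a signal of 39 against 4. Within its interval the map held 77 SOX9 tags and 10 input tags, a ratio of 7.7 (3.97 to 16.7). The intervals of the tag counts of peaks 3 and 4 do not overlap, whereas those of peaks 4 and 5 do. The highest signal within 1 kb of the HES1 TSS, 39, was above that of 91.3% of protein-coding genes and was the highest among the members.

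The 3 HES1 sequences below are shown because each summit sits on a different kind of sequence. Peak 2 holds, in capitals, an inverted repeat of the SOX9 consensus with a spacer of 4 bp, the arrangement of a SOX9 dimer site, 10 bp from the summit. Peak 3, which had the most tags, holds none of the motifs near its summit and runs through a CA repeat. Peak 4 holds 3 extended CCAAT boxes within 40 bp of the summit, at 12, 29 and 40 bp, followed by 2 copies of TGGGAA at 49 and 63 bp. The copies of TGGGAA both point toward the gene.
HES1 peak 2, chr3:193850307-193850507, plus strand: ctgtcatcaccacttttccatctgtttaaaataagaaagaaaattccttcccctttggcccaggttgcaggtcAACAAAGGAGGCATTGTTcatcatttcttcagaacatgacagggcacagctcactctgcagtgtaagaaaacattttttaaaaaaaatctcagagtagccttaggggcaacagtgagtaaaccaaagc
HES1 peak 3, chr3:193852760-193852960, plus strand: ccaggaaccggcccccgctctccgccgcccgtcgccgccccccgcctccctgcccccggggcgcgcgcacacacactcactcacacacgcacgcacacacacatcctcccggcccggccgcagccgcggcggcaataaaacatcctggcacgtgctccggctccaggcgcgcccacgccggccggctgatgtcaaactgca
HES1 peak 4, chr3:193853704-193853904, plus strand: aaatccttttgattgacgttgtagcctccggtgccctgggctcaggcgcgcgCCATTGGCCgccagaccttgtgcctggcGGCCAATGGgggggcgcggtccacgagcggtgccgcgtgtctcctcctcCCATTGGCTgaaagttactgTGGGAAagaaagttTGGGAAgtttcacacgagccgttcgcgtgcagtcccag

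**Figure D2:**
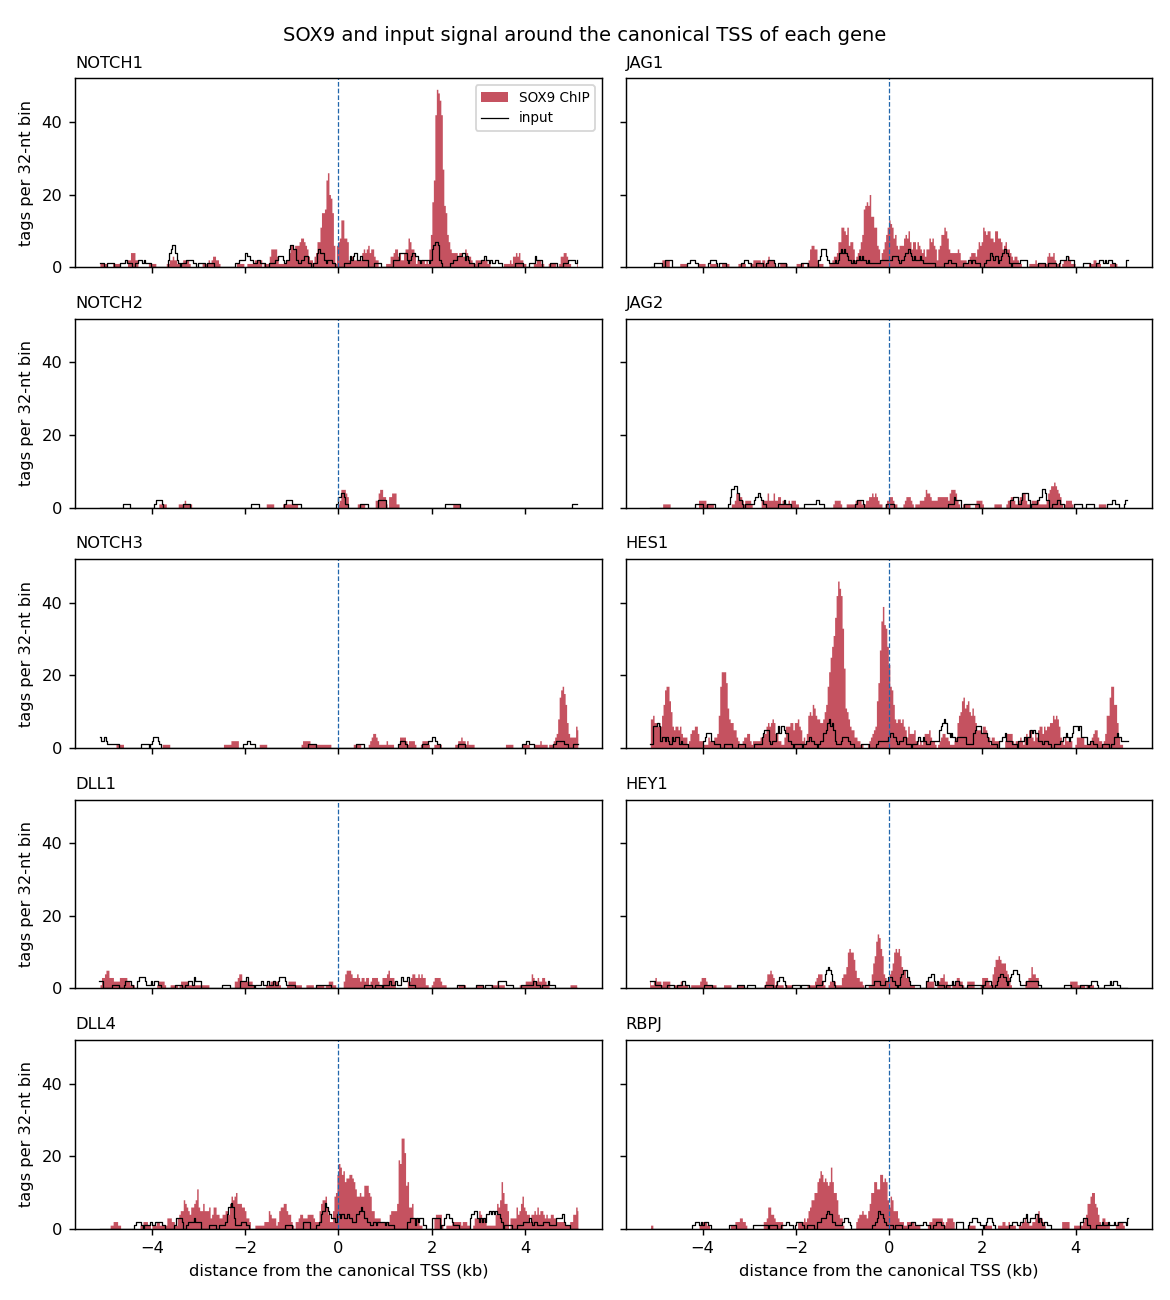
SOX9 signal (filled red) and input signal (black line), both in extended tags per 32-nt bin, against the distance in kb from the canonical TSS of each gene, with the direction of transcription to the right. HES1 shows summits of 46 and 39 upstream of its TSS and NOTCH1 shows one of 49 downstream, JAG1 shows a broad low region, and NOTCH2 and JAG2 stay at or below 5 within 1 kb of the TSS.

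The strong promoter signal of HES1 did not extend to HEY1 to the same degree. HEY1, a HES-related repressor, lies on the minus strand of chromosome 8 at chr8:80674606-80680092. Its promoter peak, at chr8:80679571-80680418, had the summit 138 bp upstream of the nearest TSS and 228 bp upstream of the canonical one, with 38 tags (26.9 to 52.2), a fold of 8.26 and a signal of 15 against 5 in the input. That is fewer tags than in the HES1 promoter peak, and the intervals of the 2 counts do not overlap. Set against the input, the difference was not resolved. The ratio was 3.08 (1.57 to 6.49) in this peak and 7.7 (3.97 to 16.7) in that of HES1, with intervals that overlap. A second peak 16334 bp upstream held 35 tags (24.4 to 48.7) at a fold of 6.59. Both HEY1 peaks lay near starts of the long noncoding RNA LINC01607, at 115 bp and 552 bp, and for both this start was nearer than that of HEY1.

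Such ambiguity of assignment arose at other peaks of the set as well. The nearest coding TSS was that of the member for 21 of the 24 peaks, and for 3 it was that of SEC16A, FAM120B or CHAC1. When noncoding genes were included, the nearest TSS was the member's for 12 of the 24, and for 7 it was that of a long noncoding RNA. The like shares over all SOX9 peaks are not given here, so these counts are no trait of the set. At HES1, for example, the outermost upstream peak stood 190 bp from the start of LINC02924.

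The signal maps allow the promoters to be ranked without the peak calls. The highest SOX9 signal within 1 kb of any TSS had a median of 18.5 over the 10 genes, against 12 over all protein-coding genes (quartiles 4 and 22), whereas the input had a median of 5 in both. This signal is a maximum over all TSSs of a gene, of which the members had a median of 7.5 against 5. In descending order HES1 stood at 39, NOTCH1 at 26, DLL4 at 25, DLL1 at 21, JAG1 at 20, RBPJ at 17 and HEY1 at 15. JAG2 and NOTCH2 stood at 5 and NOTCH3 at 4, close to the lower quartile. The members thus fell into 7 genes above the median of all genes and 3 genes near its lower quartile, in the same division as the peak calls made on these tags. Around the canonical TSS alone the highest signal was lower for DLL1 (5), DLL4 (18) and RBPJ (15) and unchanged for the other members.

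**Figure D3:**
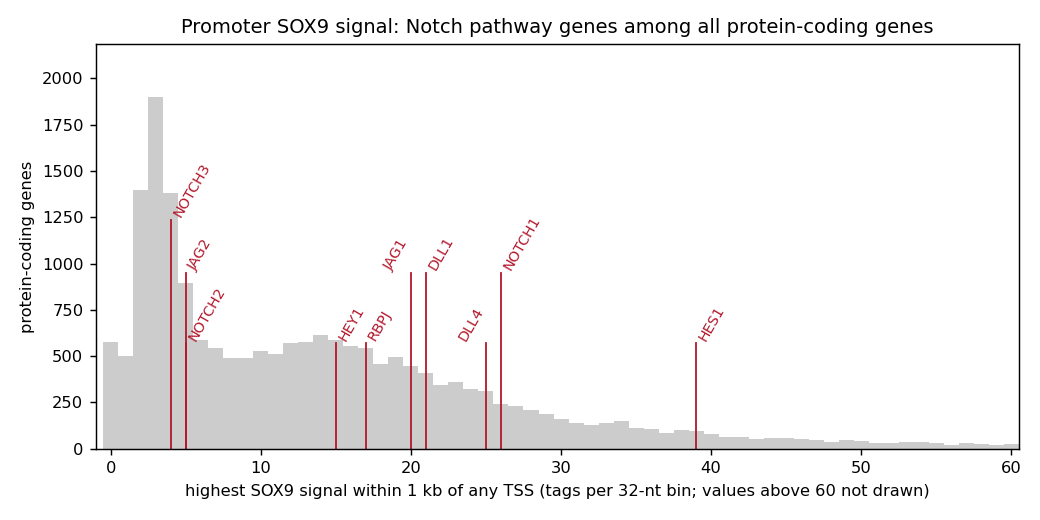
Number of protein-coding genes (grey bars) by the highest SOX9 signal within 1 kb of any of their TSSs, in extended tags per 32-nt bin, with the 10 genes marked in red at heights that carry no value. NOTCH3, JAG2 and NOTCH2 stand at 4 to 5, near the lower quartile of all genes, and HES1 stands at 39, above 91.3% of them.

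The ratio of SOX9 to input tags was also taken around the canonical TSS. Over 19309 protein-coding genes with input tags in the window it had a median of 2 (quartiles 1.2 and 2.84), and over the 10 genes the median was 3.83. Among genes with a promoter peak, HES1 had 109 SOX9 and 20 input tags, a ratio of 5.45 (3.36 to 9.27), JAG1 had 101 and 26, a ratio of 3.88 (2.5 to 6.23), and NOTCH1 had 80 and 22, a ratio of 3.64 (2.25 to 6.12). RBPJ had a ratio of 3.79 (2.07 to 7.39), HEY1 one of 3.11 (1.8 to 5.62) and DLL4 one of 2.9 (1.91 to 4.52), while DLL1, whose peak lies far from this TSS, had 4.6 as given above. When these 7 genes are ordered by ratio, the intervals of neighbours overlap throughout, so the order itself is not resolved by these counts. NOTCH3 and JAG2, which had no promoter peak, had ratios of 5.5 (1.2 to 51.1) and 7.33, which rest on 2 and 3 input tags.

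**Figure D4:**
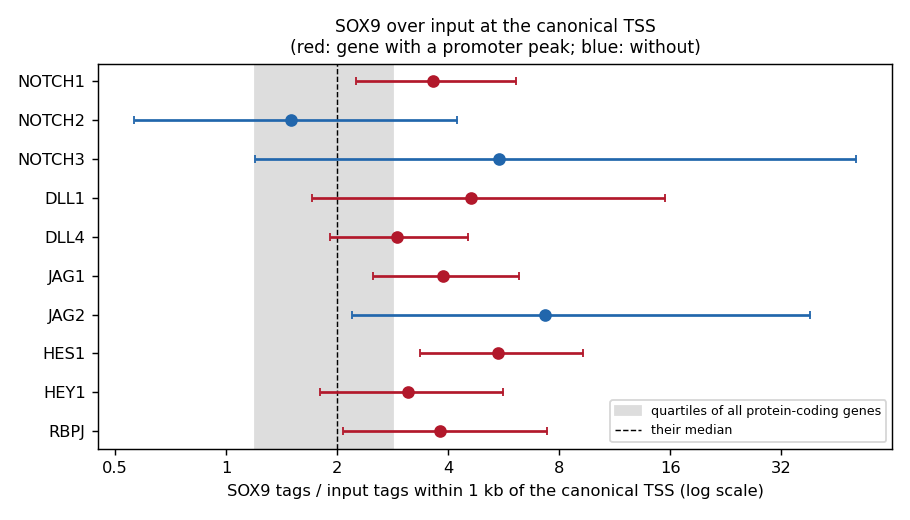
Ratio of SOX9 to input tags within 1 kb of the canonical TSS, on a log axis, with exact 95% intervals for counting error. The shaded band spans the quartiles of all protein-coding genes (1.2 to 2.84) and the dashed line is their median (2). In 9 of the 10 genes the interval lies above 1, and NOTCH2 is the exception. The share of all protein-coding genes with such an interval is not given here, so this count is no sign of enrichment.

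The amount of input DNA around the genes followed the division into genes with and without a promoter peak only in part. HT-29 is aneuploid, and the mean input signal in the 1 Mb around each gene, divided by the autosomal median of such windows, was 0.635 for NOTCH2, 0.608 for NOTCH3 and 0.751 for JAG2. DLL1 stood at 0.683, and the other 6 genes lay between 1.05 for HEY1 and 1.56 for DLL4, with HES1 at 1.53. The 3 genes without a promoter peak were therefore among the 4 with the least input, and the part of this in the peak calls was not tested. Unsequenced bases, which hold no tags, made up 16.2% of the window for NOTCH2, 9.84% for DLL1 and 5.0% for NOTCH1. They made up 0.529% for HES1 and none of it for NOTCH3 and JAG2.

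Motifs within 100 bp of the summits were searched on both strands, and a match is a description of the letters, not a site. CCAAT was found in 8 of the 24 peaks, against 26.4% of all SOX9 peaks, namely in 4 of the 9 promoter peaks (30.6% of all promoter peaks) and 4 of the 15 others (22.5%). The longer Motif 1, written here as RRCCAATSR with R for A or G and S for C or G to stand for the flanked CCAAT of the study, was found only at the HES1 promoter, against 8.98% of all peaks and 14.8% of promoter peaks. Each Motif 1 match contains a CCAAT. The study, which matched its motifs to the peak sequences with the program FIMO, lists NOTCH1 among its genes with Motif 1. That matching rule differs from the fixed letters and the 100 bp window used here. The lack of a match at NOTCH1 here therefore does not mean that the gene lacks the motif of the study. The SOX9 consensus, Motif 2 (WWCAAWG, with W for A or T), was found in 4 of the 24 peaks, against 20.5%, and in none of the 9 promoter peaks, against 7.68% of all promoter peaks. The 4 were distal or intronic peaks of HES1, HEY1 and RBPJ, and 32.7% of all peaks away from promoters held it. These shares were not tested, and each of them moves by several percentage points with a single peak of the 24.

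The HES1 locus held the rarer arrangements. Motif 3, the inverted repeat of Motif 2 with a 4 bp spacer and at most 2 mismatches in 1 copy, was found in 3.57% of all peaks and in 1 member peak, HES1 peak 2. There both copies were exact, as in 41 of the 17847 peaks (0.23%). In HES1 peak 4 the 3 matches to Motif 1 were an arrangement shared by 53 of all peaks (0.297%) and by 37 of the 8654 promoter peaks (0.428%). These copy counts were looked at after the sequences had been seen.

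The RBPJ core TGGGAA was found in 6 of the 24 peaks, against 15.3% of all peaks. The 6 were NOTCH1 peak 3, NOTCH3 peak 1, DLL4 peak 2, HES1 peak 4, HEY1 peak 1 and RBPJ peak 5. In 3 of them, those of NOTCH1, HES1 and HEY1, it occurred at least 2 times, as in 1.43% of all peaks. TGANTCA was found in 2 of the 24 peaks, against 15.1% of all peaks. Both were intronic, in NOTCH3 and RBPJ.

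The other genes of the pathway were examined as a list of 56. For these genes a peak means a promoter peak unless stated otherwise, and some genes without one had a SOX9 peak elsewhere in the body or flanks. A SOX9 summit lay within 1 kb of a TSS in 36 of the 56 (64.3%), beside 44.9% of all protein-coding genes, and their promoter peaks held a median of 50 tags (12 to 244) against 56 over all promoter peaks. Among the roles with more than 1 listed gene, the share was highest for the nuclear partners and lowest for the other ligands. Of the 15 genes of the nuclear complex and its co-repressors 13 had a peak, led by HDAC1, a histone deacetylase of the repressor complexes, with 244 tags (214 to 277) at a fold of 96.83, and TLE3, a Groucho co-repressor of HES proteins, with 151 tags (128 to 177). In this class CIR1 and KAT2A had no promoter peak. The HDAC1 peak exceeded every one of the 24 peaks of the core genes in both tags and fold.

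At the cell surface the picture was mixed. NOTCH4, the remaining receptor, had a promoter peak of 102 tags (83.2 to 124), although its 3 relatives in the core set included 2 without one. Of the 5 other ligands only DLK2 had a promoter peak, with 29 tags, and DLL3, DLK1, MFAP2 and CNTN1 had no promoter peak. DLL3, MFAP2 and CNTN1 each had 1 peak elsewhere in the body or flanks. Of the 5 glycosyltransferases that modify Notch, 3 had a promoter peak, while MFNG and RFNG had no promoter peak. Among the 3 were LFNG, the Lunatic fringe enzyme, with 182 tags (157 to 210) and POFUT1, the O-fucosyltransferase, with 104 tags (85.0 to 126).

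Of the 9 proteases 6 had a promoter peak, the largest at NCSTN, the γ-secretase subunit nicastrin, with 57 tags, and at ADAM17 with 54 tags. ADAM10 and PSENEN were among those without one. Among the 12 genes of endocytosis and turnover 7 had a peak, led by the ubiquitin ligase gene MIB2 with 91 tags (73.3 to 112) at a fold of only 4.08 and by NUMB, a Notch inhibitor, with 79 tags (62.5 to 98.5) at a fold of 29.22. ITCH, NEURL1, DTX1, DTX2 and DTX3 had no promoter peak. Among the 9 targets and basic helix-loop-helix genes 5 had a peak, with HES4 at 86 tags, in a peak that lay nearer to a TSS of ISG15, and HES6 and NRARP at 42 tags each. HES5, HES7, HEYL and ATOH1, the secretory factor that HES1 represses, had no promoter peak, and ATOH1 had none within 20 kb of its body either.

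**Figure D5:**
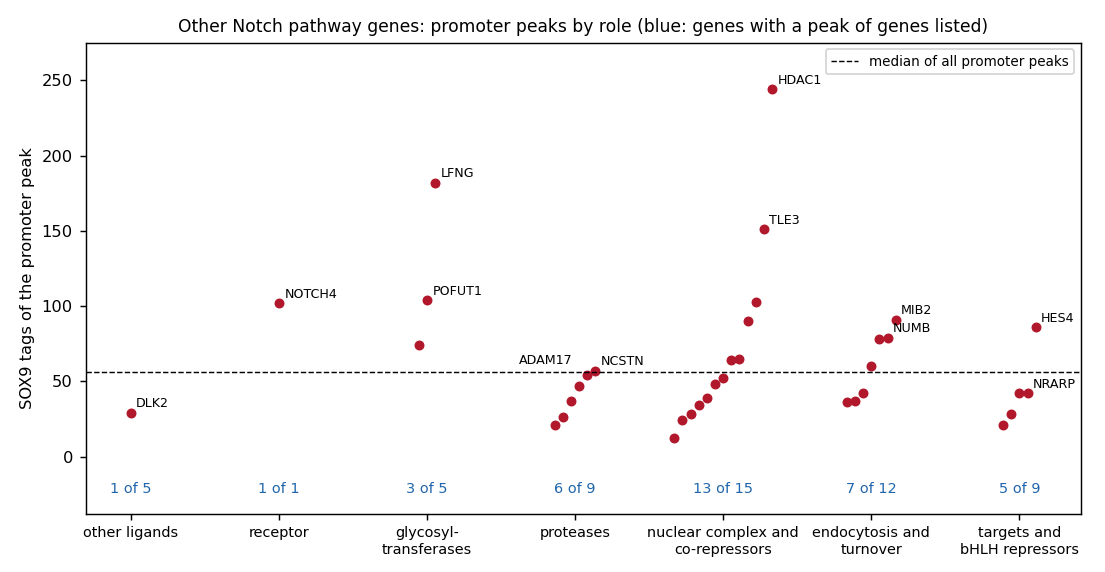
SOX9 tags of the promoter peak with the most tags, for each of the 36 other pathway genes that had one, grouped by role, with the genes having a peak and the genes listed given under each group. The dashed line is the median of all promoter peaks (56 tags). HDAC1 (244 tags), LFNG (182 tags) and TLE3 (151 tags) stand highest, and 13 of 15 nuclear genes but 1 of 5 other ligands had a promoter peak.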

How the data were processed

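SOX9 ChIP and input DNA from HT-29 cells were each sequenced in 1 library. The submitters' notes name BWA and hg19 for the alignment. Peaks of the ChIP against the input were those of the authors, who used MACS 1.3.7.1 at a p cut-off of 1.00e-07. For each peak the authors deposited a count of ChIP tags, a score (−10 log10 of the MACS p-value), a fold, which is the ratio to the local input, and an FDR in percent. The signal maps they deposited count, in each bin of 32 nt, the tags after extension to 150 bp, with no other normalization. MACS counted 12319746 unique ChIP tags and 12320062 unique input tags.

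From these files, summits were placed on GENCODE release 44 on hg19, with 1 record kept per gene symbol. Tags in a window are the map sum divided by the 5 bins of an extended tag. Intervals are exact, Poisson for counts and binomial for ratios. Sequences were read from the hg19 reference and searched for motifs, on either strand, up to 100 bp from each summit. The procedures were tested on simulated data. The members, the pathway list and the motifs were chosen with earlier results of these data known. All 10 members are named, and of the list the 2 genes per role with the most tags in a promoter peak and those without a promoter peak, except for 1 gene that is not reported here. Alternatives were windows of 3 kb and 500 bp, other TSS sets, midpoints, a score of at least 100, a 10 kb flank, other motif windows and the mean signal. The canonical TSS, the copies of motifs, and the limit of promoter peaks to the nearest coding gene were added after seeing the data. The work was done in Python 3.11.15 with pysam 0.24.0, pandas 2.3.3, SciPy 1.17.1, NumPy 2.4.6 and matplotlib 3.10.9.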

Additional observations from a re-analysis of the deposited data

How the results depend on the processing

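The number of genes with a promoter peak was 7 at 3 kb (47.6% of all protein-coding genes), at 500 bp (42.7%), with TSSs of protein-coding transcripts (43.1%) and with interval midpoints (45.0%). It was 6 with the outermost TSS (38.1%), which lost RBPJ, 6 with the canonical TSS (40.9%) or with peaks nearest to the member (both added after seeing the data), which lost DLL1, and 5 at a score of at least 100 (35.9%), which lost DLL1 and HEY1. The peaks numbered 24 as reported and 21, 21, 16 and 24 with a 10 kb flank, the nearest coding gene, the stricter score and midpoints, but 11 in the gene bodies alone. Over the whole peak interval, a longer sequence, CCAAT was in 14 of the 24 peaks and the SOX9 consensus in 12. The like shares of all SOX9 peaks over the whole interval are not given here, so these counts are no sign of enrichment. With Motif 1 in place of CCAAT within 100 bp of the summit, the count was 1. The mean SOX9 signal over the bins within 1 kb of a TSS was taken at the TSS of each gene where it was highest. It is a smaller quantity by construction than the highest bin, and it had a median of 5.96, against 3.3 over all genes. The pathway list gave 39, 35, 25 and 34 of 56 genes at 3 kb, with coding transcripts, the stricter score and the canonical TSS, under which the shares of all protein-coding genes were 47.6%, 43.1%, 35.9% and 40.9%. No paired analysis was possible because each group has 1 library. With 1 library per group, variation between experiments is unknown, and at this depth a gene without a peak is one where none was detectable.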
